A study of Mus musculus with 12 samples.

Results

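The 8 genes described here encode the cytokines tumor necrosis factor and interleukin 1 and the proteins that receive them. They are the ligand genes Tnf, Il1a and Il1b, the gene of the interleukin 1 receptor antagonist, Il1rn, and the receptor genes Tnfrsf1a, Tnfrsf1b, Il1r1 and Il1rap. The 8 genes were taken by name from the 20989 gene loci with an expression value, and the group was put together with the difference between cocktail and control slices in these same libraries already known. For that reason the members' own differences are given as a description, with an error and no p-value, and nothing is read from how many of them a fit over all loci called.

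Auditory cortex was taken from 6 C57bl6/J mice aged 4 weeks as acute coronal slices, and the hemispheres of each mouse were divided between the conditions. All slices recovered for 15 min in a choline chloride buffer and rested for 45 min in artificial cerebrospinal fluid (aCSF). In the control condition, 6 hemispheres then stayed for 1 h in aCSF with no drug added. In the cocktail condition, the other 6 hemispheres spent the same time in aCSF with 50 µM bicuculline methiodide, 100 µM norepinephrine, 50 µM carbamoylcholine, 100 µM dopamine, 40 µM ascorbic acid and 100 µM serotonin, which together block inhibitory GABA-A receptors and engage neuromodulatory receptors. According to the study's methods, both sets of slices rested once more in aCSF before RNA was taken. Every sample, control included, is therefore cut tissue kept in vitro, and no RNA from uncut cortex was analysed here.

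Tumor necrosis factor and interleukin 1 are early messengers of the innate immune response, and in the brain microglia are a well-known source of both. Tumor necrosis factor is made as a membrane protein that can be shed, and it binds Tnfrsf1a, the receptor with a death domain, and Tnfrsf1b, which lacks one. The proteins made from Il1a and Il1b both bind Il1r1, which signals once Il1rap, the accessory chain, joins it. Il1rn encodes a secreted protein that occupies Il1r1 without signaling. Both pathways lead to the transcription factor NF-κB and to MAP kinases, and messengers of these cytokines are short-lived because proteins such as Zfp36 bind AU-rich elements in them.

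Expression was given as FPKM, fragments scaled to transcript length and to the size of the library, which allows levels of different genes to be compared. Between 10601067 and 19768881 reads per library were recovered from the values in control and between 13544297 and 17643462 in cocktail. All 9 microglia markers had a mean FPKM of at least 1. Summed over the 9 genes they gave 100.3 to 109.2 FPKM in control and 97.7 to 119.3 in cocktail. Marker sums of other immune cells were lower than that of microglia. The 5 neutrophil and monocyte markers in the files summed to at most 0.468 FPKM in any library, the 4 T cell markers to at most 0.400, and the 5 border macrophage markers to at most 4.19. Among these last, Pf4 had a mean of 1.42 FPKM and was the 1 gene above a mean of 1. Markers of excitatory cortical neurons summed to between 1205 and 1406 FPKM in all libraries, against at most 11.9 for 3 striatal markers. The sum of 3 inhibitory neuron markers was 140.2 to 162 FPKM in control and 161 to 169 in cocktail, higher in 6 of 6 mice, and its part in the results was not tested. In whole tissue, fewer cells of a type and less RNA per cell cannot be told apart.

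The sequences just upstream of the 3 ligand genes and of the antagonist gene are shown because these are the members that differed most between mice or conditions. Each is the 250 bases before a transcription start of RefSeq on build GRCm38.p6, the assembly also called mm10, written 5′ to 3′ on the gene's own strand. Capitals mark matches to the letters searched, on either strand. All 3 ligand genes hold TATAAA close to the start.
Tnf, chr17:35202008-35202257, minus strand: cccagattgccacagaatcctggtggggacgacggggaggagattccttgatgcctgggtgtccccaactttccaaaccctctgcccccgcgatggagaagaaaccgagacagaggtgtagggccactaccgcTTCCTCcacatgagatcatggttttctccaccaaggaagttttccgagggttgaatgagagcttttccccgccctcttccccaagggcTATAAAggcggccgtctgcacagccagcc
Il1a, chr2:129309973-129310222, minus strand: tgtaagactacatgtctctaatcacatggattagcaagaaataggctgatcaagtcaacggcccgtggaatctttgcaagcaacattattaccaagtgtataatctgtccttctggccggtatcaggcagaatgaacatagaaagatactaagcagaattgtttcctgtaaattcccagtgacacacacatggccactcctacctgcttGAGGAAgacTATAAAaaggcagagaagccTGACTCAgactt
Il1b, chr2:129371140-129371389, minus strand: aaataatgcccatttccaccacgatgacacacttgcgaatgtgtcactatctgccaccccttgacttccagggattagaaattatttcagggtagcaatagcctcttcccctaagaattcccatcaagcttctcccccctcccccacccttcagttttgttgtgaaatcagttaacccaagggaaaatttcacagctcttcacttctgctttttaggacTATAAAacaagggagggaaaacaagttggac
Il1rn, chr2:24336610-24336859, plus strand, the first of 3 starts: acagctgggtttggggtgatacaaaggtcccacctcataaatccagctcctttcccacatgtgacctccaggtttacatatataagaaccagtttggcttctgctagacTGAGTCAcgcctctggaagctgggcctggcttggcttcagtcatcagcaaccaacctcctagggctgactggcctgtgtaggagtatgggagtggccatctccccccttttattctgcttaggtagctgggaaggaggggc

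A set of 6 short words was searched on both strands of the 32851 windows of this length in the RefSeq table, and no 2 matches overlapped in a member. TATAAA, the core of the TATA box, ended 24 bases before the Tnf start, 27 before that of Il1a and 26 before that of Il1b. It was in 12.4% of all windows and in none of the other members' windows. The PU-box GAGGAA, the core word of sites for the myeloid factor PU.1, was in the windows of Tnf (on the opposite strand), Il1a and Tnfrsf1b, and in 23.3% of all windows. The AP-1 word TGANTCA was found for Il1a and for the first start of Il1rn, against 6.75% of all windows. The NF-κB word GGNNTTTCC was found only for the third start of Il1rn among the member windows, against 4.93% of all windows. The cyclic AMP response element TGACGTCA (1.55% of all windows) and the C/EBP word TTGCNNNAA (8.29%) matched none of the 11 member windows. The windows of Tnfrsf1a, Il1rap and both starts of Il1r1 held none of the 6 words. A match to such letters is a description of the sequence and not a measured binding site.

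In control slices the ligand genes were the most abundant members and the antagonist gene was the least. Il1b had the highest mean, 15.0 ± 6.58 FPKM (SD, n = 6), which exceeded the level of 78.4% of all loci. Il1a followed with 11.3 ± 7.25 FPKM and Tnf with 10.7 ± 6.28 FPKM, both near the median of 10.2 FPKM over the 12032 loci whose mean reached 1. Neighbors in this order were not separated, since Il1b exceeded Il1a in 5 of 6 mice and Il1a exceeded Tnf in 4 of 6, with overlapping ranges.

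Among the receptor genes, the accessory chain gene Il1rap was highest, with 8.71 ± 1.23 FPKM in control. It overlapped Tnf, which exceeded it in 3 of 6 mice, but lay above Tnfrsf1b in 6 of 6 mice without overlap. The 2 tumor necrosis factor receptor genes were alike, with 4.72 ± 0.494 FPKM for Tnfrsf1b and 4.70 ± 0.593 FPKM for Tnfrsf1a, and each was the higher one in 3 of 6 mice. Il1r1, the signaling receptor of interleukin 1, had 0.983 ± 0.171 FPKM and lay below Tnfrsf1a in all 6 mice without overlap. Il1rn had 0.851 ± 0.340 FPKM, not separated from Il1r1, which exceeded it in 4 of 6 mice. Within each control library Il1rap exceeded Il1r1 by 7.54- to 10.8-fold, with a median of 8.55, and Il1rn was between 0.0478 and 0.0743 of Il1b.

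**Figure D1:**
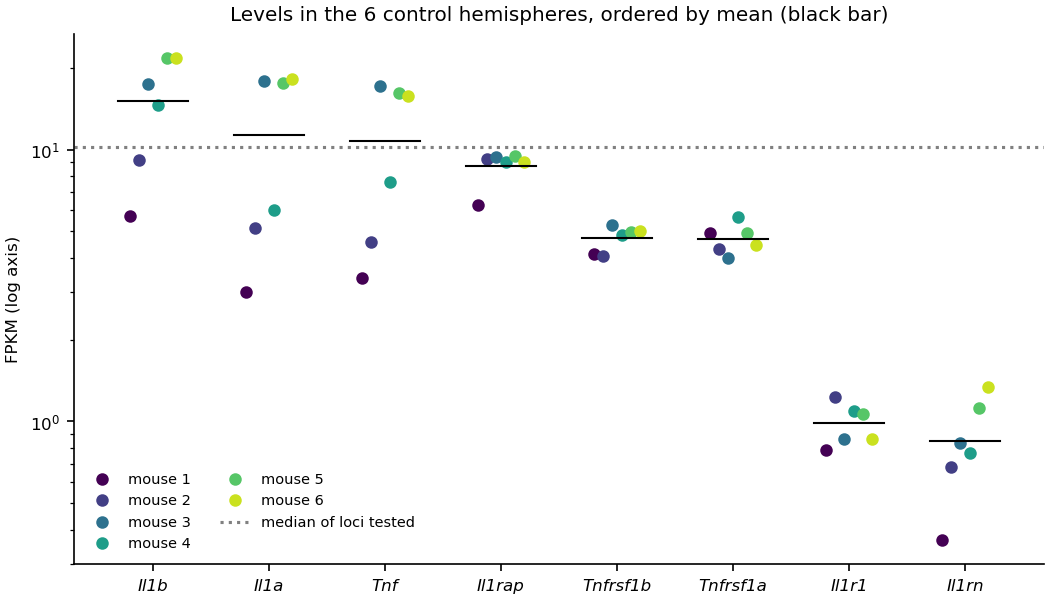
FPKM of the 8 members in the 6 control hemispheres on a log axis, 1 point per mouse, with a bar at the mean. The ligand genes Il1b, Il1a and Tnf have the highest means and the widest spread, and Il1r1 and Il1rn lie near 1 FPKM.

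In each of the 6 mice, Tnf had a lower level in cocktail than in control, which is one of the values the group was chosen by. In control its FPKM was 3.37, 4.58, 17.1, 7.57, 16.2 and 15.7 in mice 1 to 6. In cocktail it was 1.45, 1.63, 5.30, 2.40, 2.74 and 3.62 in the same order. Mouse 3, the highest in both conditions, had more Tnf in cocktail than mice 1 and 2 had in control, so the groups overlapped although no mouse went the other way.

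The mean of Tnf was 10.7 ± 6.28 FPKM in control and 2.86 ± 1.43 FPKM in cocktail (SD, n = 6), a 3.76-fold lower mean. The ratio of control to cocktail ranged from 2.32 to 5.90 over the mice. On the log2(FPKM + 1) scale, which understates changes of low genes, the within-mouse difference was −1.47 with a standard error of 0.14 from limma and an SD over mice of 0.50. Mice 3, 5 and 6, with the most Tnf in control, had differences of −1.52, −2.20 and −1.85, and mice 1, 2 and 4 had −0.83, −1.08 and −1.33. Between 36 and 464 reads stood behind each Tnf value.

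Il1a, made largely as a precursor that stays in the cell, had no common direction. In control it measured 3.00, 5.16, 17.9, 6.00, 17.5 and 18.1 FPKM in mice 1 to 6, and in cocktail 5.53, 8.33, 19.3, 6.15, 8.75 and 13.1 FPKM. It was higher in cocktail in mice 1, 2, 3 and 4 and lower in mice 5 and 6, and the groups overlapped over most of their range. The means were 11.3 ± 7.25 and 10.2 ± 5.22 FPKM, and the within-mouse log2 difference was 0.01 with a standard error of 0.17. Single mice ranged from −0.93 in mouse 5 to 0.71 in mouse 1. Exons of Il1a share 222 bases with an annotated transcript on the other strand. The study's methods call the reads strand specific, but do not say whether the FPKM estimates used strand.

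Il1b, whose product is cut to its active form by caspase-1 at the inflammasome, was likewise without a common direction. Its FPKM in control was 5.68, 9.19, 17.4, 14.6, 21.7 and 21.7 in mice 1 to 6, and in cocktail 10.3, 11.9, 24.6, 10.8, 13.5 and 20.1. Mice 1, 2 and 3 were higher in cocktail and mice 4, 5 and 6 were lower. The means of 15.0 ± 6.58 and 15.2 ± 5.85 FPKM differed by 0.07 on the log2 scale as a within-mouse mean, with a standard error of 0.15.

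Il1rn, the antagonist gene, was higher in cocktail in 5 of 6 mice. It measured 0.366, 0.683, 0.831, 0.768, 1.12 and 1.34 FPKM in control and 0.943, 1.15, 1.58, 1.74, 1.95 and 1.06 FPKM in cocktail, in mice 1 to 6. Mouse 6, the highest in control, was the exception, and the groups overlapped. The means were 0.851 ± 0.340 and 1.40 ± 0.411 FPKM, 1.65-fold apart, and the within-mouse log2 difference was 0.38 with a standard error of 0.095. At this low level the added 1 FPKM weighs on the result, and with 0.1 in its place the difference was 0.70. Only 14 to 67 reads stood behind each value.

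**Figure D2:**
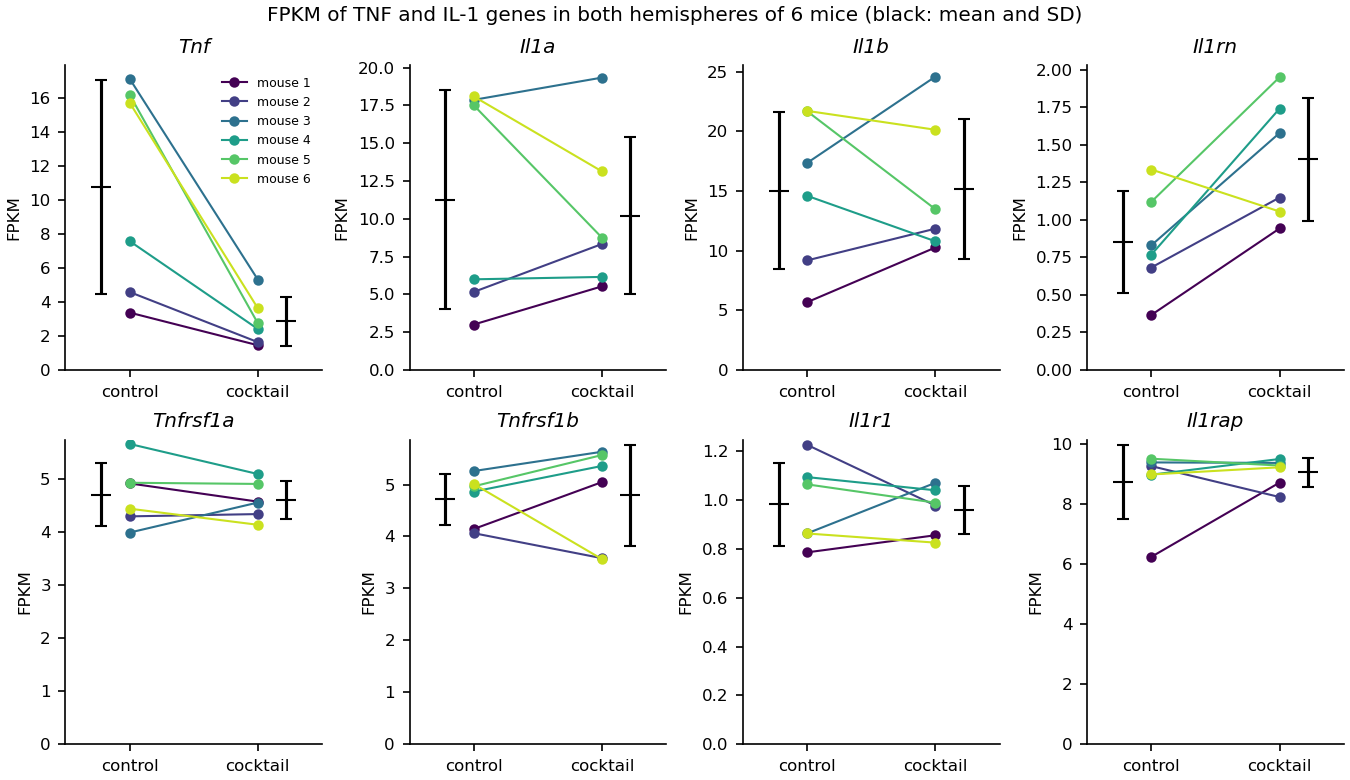
FPKM of each member in the control and the cocktail hemisphere of the 6 mice, with a line joining the hemispheres of a mouse. All 6 lines of Tnf go down from control to cocktail, 5 of 6 lines of Il1rn go up, and those of Il1a, Il1b and the receptor genes go both ways.

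Tnf was also lower relative to the interleukin 1 genes of the same library, a ratio in which depth and scaling cancel. Tnf was 0.868 to 1.26 of Il1a in the control libraries, with a median of 0.940. In cocktail it was 0.196 to 0.391 of Il1a, with a median of 0.275, and the groups did not overlap. From control to cocktail this ratio was lower by 4.28-, 4.53-, 3.49-, 3.23-, 2.95- and 3.15-fold in mice 1 to 6.

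The log2 of that fold had an SD over mice of 0.25, against 0.50 for the difference of Tnf itself. Relative to Il1b, Tnf stood at 0.498 to 0.985 in the control libraries and at 0.138 to 0.223 in cocktail, again without overlap, and was lower in 6 of 6 mice by 2.33- to 4.57-fold. The ratio of Il1a to Il1b had medians of 0.684 and 0.651 and was higher in cocktail in 3 mice and lower in 3. Il1rn over Il1b had medians of 0.0571 in control and 0.0944 in cocktail and was higher in 5 of 6 mice. These ratios use the same values as the choice of the genes and are a description only. Tnf by itself overlapped between the groups, and how often ratios of other genes do not overlap was not computed.

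The receptor genes differed little. Tnfrsf1a had a mean of 4.70 ± 0.593 FPKM in control and 4.60 ± 0.353 FPKM in cocktail, and single within-mouse log2 differences lay between −0.13 and 0.16. Tnfrsf1b had 4.72 ± 0.494 and 4.79 ± 0.966 FPKM, with a wider range from −0.40 in mouse 6 to 0.23 in mouse 1. The mean log2 differences were −0.02 with a standard error of 0.06 and 0.01 with a standard error of 0.08, small beside that of their ligand.

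Il1r1 had 0.983 ± 0.171 FPKM in control and 0.960 ± 0.0988 FPKM in cocktail, and mice ranged from −0.17 to 0.15 on the log2 scale. Il1rap had 8.71 ± 1.23 and 9.04 ± 0.483 FPKM. Its control value in mouse 1 was 6.23 FPKM while the other control mice had 8.96 to 9.49, and this mouse gave the largest difference, 0.42, against −0.15 to 0.07 in the other mice. Control mouse 1 also had the lowest values of Tnf, Il1a, Il1b, Il1rn and Il1r1 and the largest number of reads, 19768881. Its FPKM summed over all loci was 290155, against 306085 to 321723 in the other controls. Its median-of-ratios size factor was 0.905, against 0.9925 to 1.0422. The part of depth and of scaling in these low values was not tested. Exons of Il1rap share 353 bases with an annotated transcript on the other strand.

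**Figure D3:**
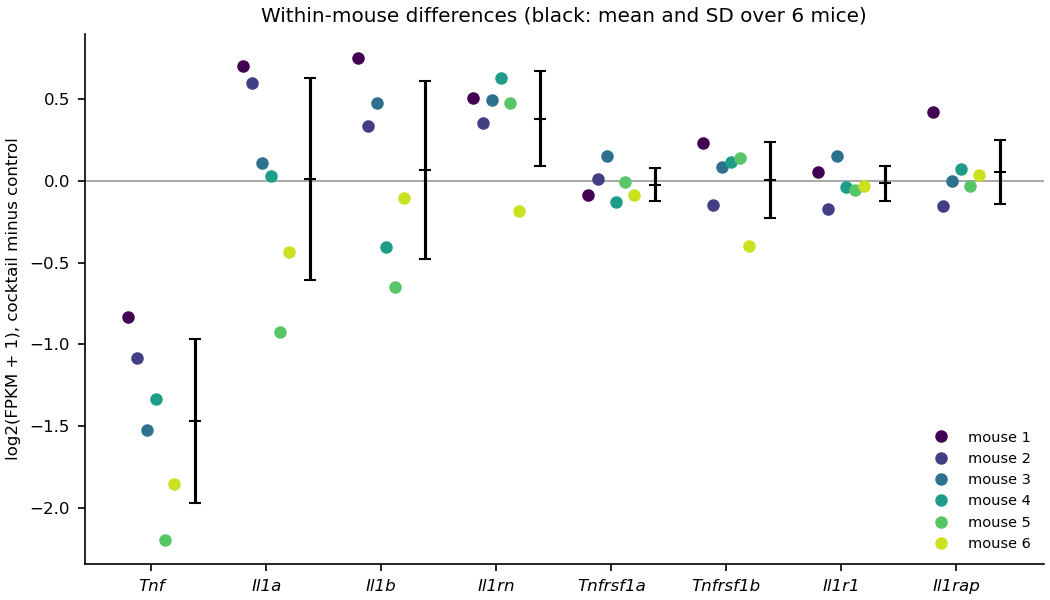
Within-mouse difference in log2(FPKM + 1), cocktail minus control, for each member and mouse, with the mean and SD over 6 mice in black. Tnf lies between −2.20 and −0.83, and the receptor genes lie within 0.42 of 0.

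Across all loci, limma with the mouse as a block was applied to the 12032 loci whose mean FPKM reached 1. Of these 1.5% were called at a Benjamini-Hochberg adjusted p under 0.05, 0.274% lower and 1.22% higher in cocktail. Of the 7 members that passed this filter, 1 was called, Tnf, as lower. Il1r1, with a mean just under 1 FPKM, was not tested. Without the block 0.731% of loci were called and no member, and without mouse 6 Il1rn was called too, as higher. Tnf was the 1 member lower in all 6 mice, where 2.66% of loci were, and 0 members were higher in all 6, where 3.64% were. Nothing is read from these counts, since the members were chosen on the same values.

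Spread between mice is a measure that the choice of the genes did not use, and here ligand and receptor genes stood apart. In control the SD of log2(FPKM + 1) over mice was 1.00 for Il1a, 0.90 for Tnf and 0.70 for Il1b, and for each of the 3 genes 99.9% of the tested loci had a lower SD. The highest mouse exceeded the lowest by 6.03-fold for Il1a, 5.08-fold for Tnf and 3.83-fold for Il1b. Il1rn spread by 3.65-fold, with an SD of 0.27.

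For the receptor genes the same SD was 0.15 for Tnfrsf1a, 0.13 for Tnfrsf1b, 0.12 for Il1r1 and 0.21 for Il1rap, against a median of 0.14 over the tested loci. In cocktail the 3 ligand genes again had more spread than 99.8% to 99.9% of the loci, with folds of 3.50 for Il1a, 3.66 for Tnf and 2.40 for Il1b between the highest and the lowest mouse. Tnfrsf1b spread by 1.58-fold in cocktail, where 96.2% of loci had a lower SD, and by 1.29-fold in control. The summed microglia markers did not spread in the same way. Their highest and lowest control mouse were 1.09-fold apart, and control mouse 1, lowest in all ligand genes, had 104.6 FPKM of these markers against 100.3 in mouse 6, which was highest in Il1a. In cocktail the marker sum spread by 1.22-fold, from 97.7 FPKM in mouse 2 to 119.3 in mouse 5.

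**Figure D4:**
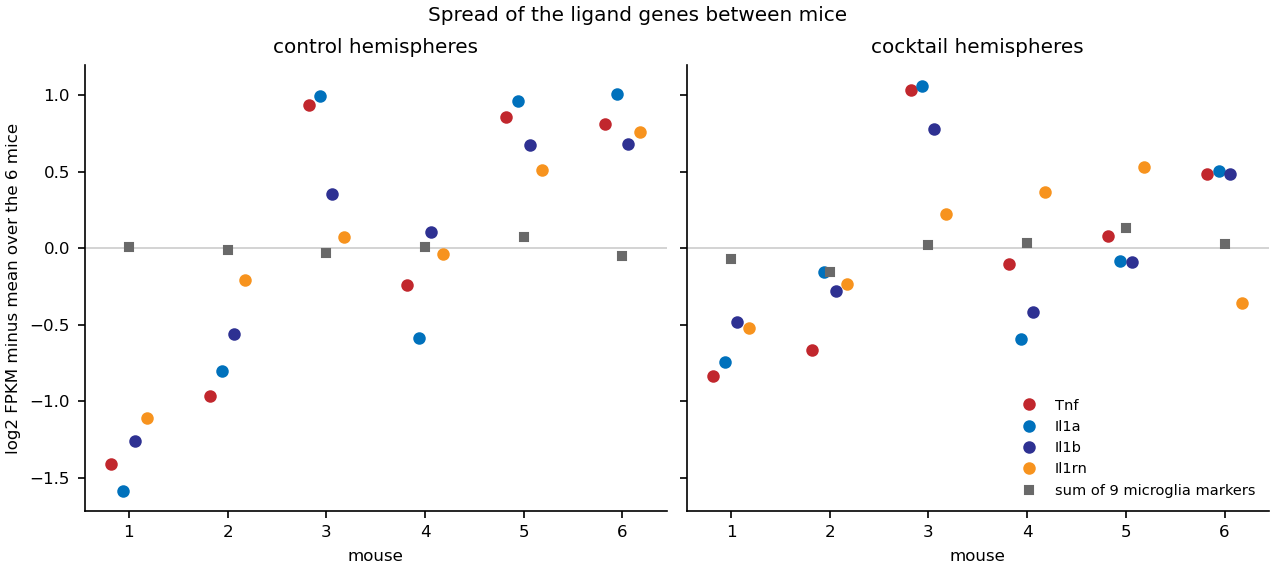
Log2 FPKM of Tnf, Il1a, Il1b, Il1rn and the sum of 9 microglia markers in each mouse, minus the mean over the 6 mice, for control and cocktail hemispheres. In control the ligand genes of mouse 1 lie lowest and those of mice 3, 5 and 6 highest, while the marker sum stays between 100.3 and 109.2 FPKM.

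In control, Tnf and Il1a divided the mice into the same separate sets. Mice 1, 2 and 4 were at 3.00 to 7.57 FPKM and mice 3, 5 and 6 at 15.7 to 18.1 FPKM. Their relations over the 6 mice were computed, but nothing is read from them for that reason. Between hemispheres, Pearson's r was 0.895 for Tnf (exact permutation p = 0.00556, adjusted p = 0.0444) and 0.808 for Il1a (0.0222 and 0.0889). Spearman's rho was 0.943 and 0.886, each with an adjusted permutation p of 0.133. For the other 6 genes the control and the cocktail hemisphere of a mouse were compared over the 6 mice. Pearson's r ranged from 0.310 for Il1rap to 0.734 for Tnfrsf1a, and Spearman's rho from 0.143 to 0.771. None of these 6 genes passed a two-sided exact permutation test after adjustment over the 8 relations computed. Their lowest adjusted p was 0.261 for r and 0.206 for rho. For Tnfrsf1a, r was 0.734 (exact permutation p = 0.108), rho was 0.771 (exact permutation p = 0.103), and r was 0.819 without mice 3 and 4. For Il1b, r was 0.636 (exact permutation p = 0.131), rho was 0.771 (exact permutation p = 0.103), and r was 0.340 without mice 1 and 2, so the relation rested on those mice.

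The other 4 genes had weaker relations. For Il1r1, r was 0.483 and rho 0.429 (exact permutation p = 0.347 and 0.419), with r at 0.380 without mice 1 and 2. For Tnfrsf1b, r was 0.407 and rho 0.429 (exact permutation p = 0.264 and 0.419), with r at 0.133 without the same mice. For Il1rn, r was 0.369 and rho 0.371 (exact permutation p = 0.464 and 0.497), with r at 0.814 without mice 1 and 6. For Il1rap, r was 0.310 and rho 0.143 (exact permutation p = 0.511 and 0.803), with r at −0.354 without mice 1 and 5. The size of these values moved with the mice left out.

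Il1b and its antagonist gene Il1rn took the same order over the 6 control mice. Pearson's r was 0.942 and Spearman's rho was 1, each with a two-sided exact permutation p of 0.00278, or 0.0167 after Benjamini-Hochberg adjustment over the 6 relations computed. The other pairs of Tnf, Il1a, Il1b and Il1rn had r of 0.857 to 0.986, each with the same adjusted permutation p of 0.0167. Their rho was 0.771 to 0.943, with adjusted permutation p of 0.0333 to 0.103. A high r was thus not particular to Il1b and Il1rn. The other pairs all hold Tnf or Il1a, with their separate sets of mice. Without mice 1 and 2, the farthest from the median of Il1b, r was 0.922. With 1 mouse left out at a time r was 0.860 to 0.965 and rho stayed at 1. Part of this order rests on small gaps. Il1b was at 21.70 FPKM in control mouse 5 and 21.73 in control mouse 6. The Il1rn values of control mice 2, 4 and 3 rested on 21, 22 and 27 reads. How far counting error could change the order was not tested. The exact permutation p was then 0.0167, the smallest that 5 mice can give, and its adjusted value, which also depends on the other relations, was 0.1 without mouse 1, 2 or 4 and 0.0333 without mouse 3, 5 or 6. Both genes were lowest in mouse 1, the library with the most reads, and highest in mouse 6, the control library with the fewest. Control reads were 19768881, 16350615, 15627274, 13933211, 14221252 and 10601067 in mice 1 to 6. The part of depth in this relation was not tested.

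Over the 12 libraries, taken as deviations from the mean of their condition, the 5 genes most like each ligand gene were listed by Pearson's r of log2(FPKM + 1). Hemispheres of a mouse are not independent and the separate sets of mice stand behind these values too, so they are a description across 12 libraries. For Tnf the 5 highest were Cd83, a surface protein of activated antigen-presenting cells (Pearson's r 0.975), Tnfaip2 (0.970), Il1a (0.964), Atxn10 (0.963) and Ccl3, a chemokine (0.961). For Il1a they were Nlrp3, the inflammasome sensor (0.975), Tnf (0.964), Tnfaip2 (0.954), Il1b (0.944) and Ngfrap1 (0.943). For Il1b they were Nlrp3 (0.951), Rab13 (0.951), Nudt3 (0.949), Cdc37 (0.945) and Il1a (0.944).

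Being alike between mice did not mean being alike between conditions. Cd83 had 27.7 FPKM in control and 28.2 in cocktail, and Nlrp3 had 1.78 and 2.18, whereas Ccl3 had 46.1 and 18.6. Among the members, the correlation with Tnf was 0.964 for Il1a, 0.941 for Il1b, 0.682 for Il1rn, 0.673 for Il1rap, 0.467 for Tnfrsf1b and −0.243 for Tnfrsf1a.

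The rest of both pathways was followed in 8 lists of genes, whose counts are read beside the 1.5% of all tested loci called and the median log2 difference of 0.01 over them. Of the 17 tested genes of tumor necrosis factor receptor signaling, limma called 0, with 0 at an unadjusted p under 0.05 and 0 by voom. Their median log2 difference was 0.00, and 9 were higher and 8 lower in cocktail. The most abundant were Rbck1 and Sharpin, subunits of the linear ubiquitin ligase, with 25.5 and 19.1 FPKM in control and 25.4 and 20.1 FPKM in cocktail. Of 12 tested genes of interleukin 1 receptor signaling, limma also called 0, with 0 at an unadjusted p under 0.05 and 0 by voom, and their median was 0.02. Tollip, an adaptor that restrains the receptor's kinases, had 65.6 and 64.6 FPKM, and Ube2v1, a partner in ubiquitin chain building, had 97.3 and 100.2 FPKM but shares 1673 exon bases with a read-through gene.

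The tested genes of maturation, decoys and sister cytokines gave no calls either, but several genes of these lists were too low to be tested. Of 16 decoys and other interleukin 1 family genes with an expression value, 6 were tested. Limma called 0 of these, with 0 at an unadjusted p under 0.05 and 0 by voom. In cocktail 5 of 6 were higher, as were 54.4% of all tested loci. Il18 had 9.17 and 9.68 FPKM, and Il33, an alarmin kept in nuclei, had 5.22 and 5.82 FPKM. Of 16 genes of maturation and release, 12 were tested. Limma and voom called 0 of these, and 1 was at an unadjusted p under 0.05. That gene was Timp3, the inhibitor of the sheddase of tumor necrosis factor, with 18.7 ± 1.37 and 20.9 ± 1.73 FPKM (limma adjusted p = 0.299, higher in 6 of 6 mice). Capns1, the calpain subunit, had 67.7 and 68.9 FPKM. The untested genes of this list, named for that reason, were Casp1, Casp4, Pycard and Gsdmd. They were lower in cocktail in 4, 5, 6 and 6 of 6 mice, where 2.66% of tested loci were lower in all 6. Between 5 and 45 reads stood behind each of their values.

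Of 17 other ligands of the tumor necrosis factor superfamily, 3 reached the filter and were tested, and limma and voom called 0. All 3 were lower in cocktail, as were 45.6% of all tested loci. The untested ligands went both ways. Tnfsf9, the ligand of 4-1BB, had 1.79 ± 0.850 and 0.988 ± 0.318 FPKM and was lower in 6 of 6 mice, with an unadjusted p of 0.00158 and an adjusted p of 0.0873 by limma, and 113 of its exon bases are shared with a transcript on the other strand. Tnfsf12 had 3.04 and 2.73 FPKM and shares 728 exon bases with a fusion gene. Of 26 other receptors of the superfamily, 9 were tested. Limma and voom called 0 of these, with 2 at an unadjusted p under 0.05. They are named after their values were seen and are Tnfrsf10b, a death receptor, at 3.28 and 4.01 FPKM, and Tnfrsf11a, the receptor of the osteoclast factor RANKL, at 1.83 and 1.49 FPKM. The abundant Tnfrsf19 had 15.6 and 14.8 FPKM and Tnfrsf21 had 29.4 and 30.3 FPKM.

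Proteins that set the stability and translation of cytokine messengers included 2 genes that rose, of 16 tested. Zfp36, which encodes tristetraprolin, a protein that leads Tnf messenger to decay, had 47.2 ± 12.4 FPKM in control and 55.8 ± 13.6 in cocktail. It was higher in 6 of 6 mice, with a log2 difference of 0.24, a standard error of 0.045 and a limma adjusted p of 0.018. Its relative Zfp36l2 rose from 16.9 ± 2.24 to 20.7 ± 1.55 FPKM, by 0.28 on the log2 scale with a standard error of 0.058 (limma adjusted p = 0.0346), also in 6 of 6 mice.

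Exons of Zfp36 and Zfp36l2 share 125 and 105 bases with annotated transcripts on the other strand. These calls depended on the fit. That of Zfp36 was lost without the block (adjusted p = 0.999), without mouse 3 (0.0994), 4 (0.113) or 5 (0.0527), and by voom (0.240). That of Zfp36l2 was lost without the block (0.207), without the filter on low values (0.0919), without mouse 1 (0.0670), 2 (0.138), 3 (0.139), 5 (0.0974) or 6 (0.0504), and by voom (0.243). The third relative, Zfp36l1, named after its values were seen, had 21.5 and 25.9 FPKM and an adjusted p of 0.0578, or 0.0234 with median-of-ratios scaling. Mapk14, the p38 kinase that acts on tristetraprolin and the most abundant kinase of the list, had 39.5 and 39.7 FPKM.

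Of 24 tested genes known to be induced by tumor necrosis factor and interleukin 1, 8 fell and 2 rose in cocktail by limma. The median log2 difference of the list was −0.19, and 21 of 24 genes were lower. Many cell types and other signals also induce these genes, and the list was put together with earlier results of these data known, so it is no independent evidence of a direction.

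The genes that fell included leukocyte adhesion molecules and chemokines. Sele, E-selectin of endothelial cells, fell from 1.89 ± 0.653 to 0.739 ± 0.272 FPKM (log2 difference −0.72, SE 0.073, limma adjusted p = 0.000191), and Selp, P-selectin, fell from 2.88 ± 0.549 to 1.68 ± 0.784 FPKM (−0.57, SE 0.097, adjusted p = 0.00985). Cxcl10, a chemokine for T cells, fell from 16.7 ± 4.26 to 5.96 ± 2.69 FPKM (−1.40, SE 0.10, adjusted p = 1.75e-05). Ccl2, which draws monocytes, fell from 4.68 ± 1.33 to 2.55 ± 0.408 FPKM (−0.66, SE 0.11, adjusted p = 0.0103), and Cxcl2, which draws neutrophils, fell from 7.37 ± 2.62 to 3.77 ± 1.95 FPKM (−0.83, SE 0.14, adjusted p = 0.011). The summed markers of endothelial cells, which make both selectins, lay between 49.3 and 60.4 FPKM in control and between 48.3 and 63.7 in cocktail.

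The remaining genes of this list that fell were Icam1, Il6 and Bcl3, by 0.48, 0.45 and 0.35 on the log2 scale. The 2 genes that rose were Ptgs2, the inducible cyclooxygenase that neurons also make with activity, from 21.1 ± 4.19 to 44.0 ± 3.58 FPKM (1.04, SE 0.099, limma adjusted p = 0.000119), and Nfkbiz, an atypical inhibitor of NF-κB (0.39, adjusted p = 0.0395). Icam1, Il6, Bcl3 and Nfkbiz were named after their values were seen, and all 4 lost their calls without the block, with adjusted p-values of 0.276, 0.171, 0.0614 and 0.366. Icam1 also lost its call without the filter (0.0594) and Il6 by voom (0.0740). Bcl3 was called by limma without mouse 3 but not without any other mouse (adjusted p up to 0.143), without the filter (0.0934) or by voom (0.187), and Nfkbiz without mouse 6 but not without any other mouse (up to 0.174), without the filter (0.157) or by voom (0.0632). Sod2, the mitochondrial superoxide dismutase and one of the most abundant genes of the list, had 54.6 and 54.2 FPKM. Sele, Cxcl10 and Ptgs2 kept their calls in every alternative run. Exons of Selp share 438 and 186 bases with a pair of transcripts on the other strand. The call of Selp was lost without mouse 2 (adjusted p = 0.0519), without the block (0.158), without the filter (0.0642) and by voom (0.0755). That of Ccl2 was lost without mouse 2 (0.0583), without the filter (0.0795) and by voom (0.101), and that of Cxcl2 without mouse 4 (0.0577), without the block (0.176), without the filter (0.0930) and by voom (0.134).

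**Figure D5:**
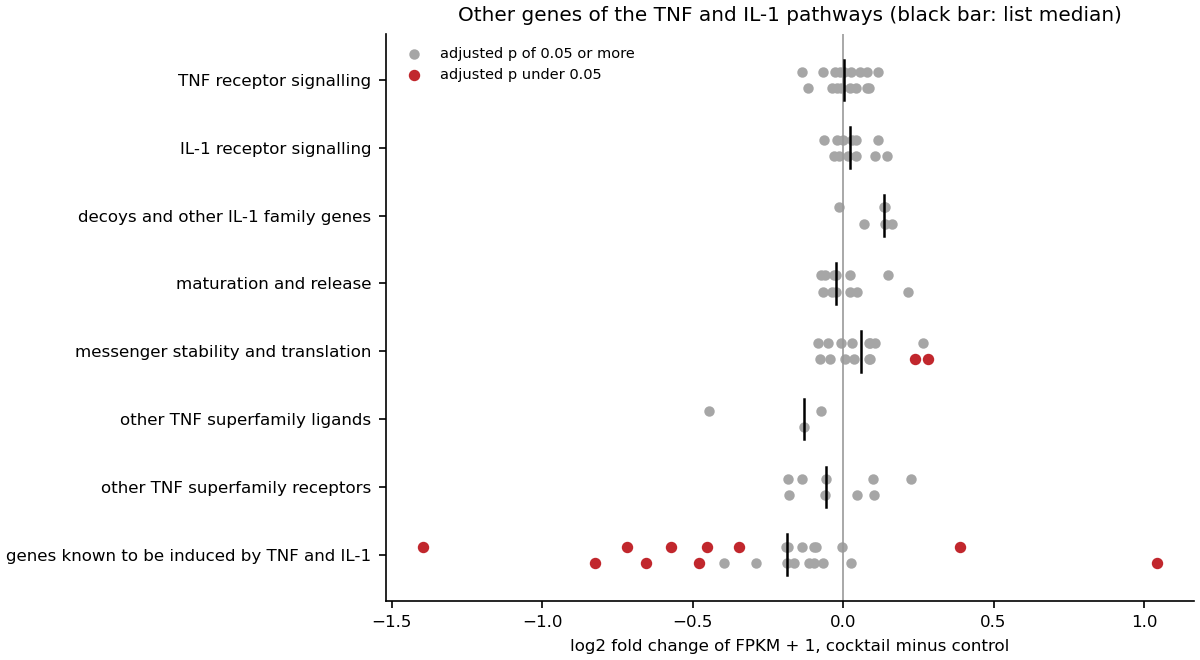
Log2 difference of FPKM + 1, cocktail minus control, for each tested gene of 8 lists, with genes at an adjusted p under 0.05 in red and a black bar at the list median. The receptor signaling lists lie close to 0, and 8 of the 24 tested genes known to be induced by TNF and IL-1 are called lower and 2 higher.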

How the data were processed

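Poly-A RNA of 12 hemispheres from 6 mice was sequenced as single 50 bp reads. Following the study's methods and the labels, the authors removed ribosomal reads with BWA 0.6.1, aligned the rest to mm10 with TopHat 1.4.1, keeping reads with 1 placement, and computed the deposited FPKM values with Cufflinks 1.3.0 with bias correction. Their HTSeq 0.6.1p1 and DESeq2 1.6.3 comparison (mean counts, fold changes, p-values and group means of FPKM) was not used. Reads behind a value were recovered from the deposited FPKM interval, taken as 2 Poisson standard deviations. Of 36412 values under 20 reads, 82.8% were whole within 0.05. FPKM values were compared as log2(FPKM + 1) with limma 3.58.1 (R 4.3.3), with mouse as a block and a mean-variance trend, over 12032 of 20989 loci with a mean of at least 1 FPKM, and p-values were adjusted by Benjamini-Hochberg. Loci that share a symbol were kept as separate loci. The hemispheres of a mouse pair the libraries. Deviations from the group means correlated at 0.216 to 0.406 within the 6 mice, and at −0.420 to 0.445, with a median of −0.0714, over 30 pairs of different mice. Each library is 1 hemisphere. With the block, limma takes within-mouse differences over the 6 mice, but draws the variance of each locus toward a trend over all tested loci. Its standard errors and p-values are therefore not those of the 6 mice alone. For Tnf, Il1a and Il1b the limma standard errors are smaller than the spread over mice alone would give. The SD of their within-mouse differences was 0.50, 0.62 and 0.54.

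Genes named are the 8 members, up to 6 called genes and the 2 most abundant genes of each pathway list, and the 5 genes most correlated with each ligand gene. The members and lists were chosen with earlier results of these data known. Overlaps of exons were read from GENCODE M21 and promoters from RefSeq, in which all 8 members were found. The fit was tested on simulated data. Alternatives were no block, an added 0.1 FPKM, no filter, no trend, median-of-ratios scaling, voom on the recovered reads, and each mouse left out.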

Additional observations from a re-analysis of the deposited data

Results flagged for a closer look

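Of 24 sets of 6 values looked at for a single sample far from the rest, 2 held one, and chance gives about 1 in 20. The within-mouse log2 difference of Il1rn was −0.18 in mouse 6, while the other mice had 0.35 to 0.63, a gap of 0.658 of the whole range. Control mouse 1 had 6.23 FPKM of Il1rap, while the other control mice had 8.96 to 9.49, a gap of 0.837 of the range.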

How the results depend on the processing

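Tnf was lower in cocktail in each alternative, from −1.96 with voom and −1.75 with an added 0.1 FPKM to −1.60 to −1.33 with 1 mouse left out. Il1rn was higher by 0.70 with an added 0.1 FPKM and by 0.83 with voom, against 0.38, and by 0.33 to 0.49 with 1 mouse left out. Against 180 loci called, the fit without the replicate block called 88 and voom 118, and 104 to 181 were called with 1 mouse left out, the fewest without mouse 4. No member was called without the block (0 of 7), and 1 to 2 with 1 mouse left out. Of the genes for messenger stability, 2 were called higher, against 0 without the block, 1 without the filter, 0 by voom and 0 to 1 with 1 mouse left out. Of the genes known to be induced by TNF and IL-1, 2 were called higher and 8 lower, against 1 and 3 without the block, 1 and 3 without the filter and 1 and 3 by voom, and 1 to 2 and 5 to 8 with 1 mouse left out, 5 without mouse 2. The other calls lost without the block were those given beside each gene, and it changed no other call of a named gene. The r of Il1b and Il1rn in control was 0.860 to 0.965 with 1 mouse left out. Without mouse 1 the r between hemispheres turned to −0.13 for Il1rn and −0.14 for Il1rap, and their values with 1 mouse left out ranged from −0.125 to 0.918 and from −0.140 to 0.919. Differences near 0 changed sign. With 1 mouse left out, Il1a ranged from −0.12 to 0.20, Il1b from −0.07 to 0.21, Tnfrsf1b from −0.04 to 0.09, Il1rap from −0.02 to 0.10 and Il1r1 from −0.05 to 0.02. By voom Il1a was at −0.07 and Tnfrsf1b at −0.00511, and Tnfrsf1b was at −0.00177 with median-of-ratios scaling. Among other genes, Rbck1 ranged from −0.0456 to 0.0240, Capns1 from −0.00440 to 0.0412, Mapk14 from −0.0168 to 0.0206 and Sod2 from −0.0611 to 0.0188 with 1 mouse left out. By voom Ube2v1 was at −0.0314, Capns1 at −0.0316, Tnfrsf21 at −0.00248 and Sod2 at 0.00781, and Mapk14 was at −0.00351 with median-of-ratios scaling. The cause of these changes was not tested. Of the values that answer a comparison, 324 stayed on their side of the threshold or within the spread, 28 moved, 3 lost their call and 2, both correlations, changed sign, with the sign changes of uncalled members counted among the 324. Of those of single named genes and counts by direction, 307 stayed, 7 moved, 44 lost their call, 1 gained one and 13 changed sign.

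The 14 to 67 reads of Il1rn and 43 to 101 of Il1r1 limit the precision of the lowest members. The recovered reads and floors cover counting error only, and 6 mice give no more than the spread between these animals.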
